A study of Mus musculus with 16 samples.

Results

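The enzymes that make and remove prostaglandins and thromboxane were followed in the mouse cerebellum by 10 genes, namely Ptgs1, Ptgs2, Ptgds, Hpgds, Ptges, Ptges2, Ptges3, Tbxas1, Hpgd and Ptgr1. They were chosen as enzymes of this pathway, by the symbols of the Ensembl gene identifiers and with earlier results of these data known. All 10 of 10 were found among the 17074 genes measured. RNA-Seq of poly(A) RNA was performed on cerebellum of female C57BL/6 mice, with 4 libraries in each of 4 groups and 16 in all. Young groups were control and Acsl6-/- mice aged 2 months, and aged groups were control and Acsl6-/- mice aged 18 months that had aged naturally. Acsl6-/- mice carry a germline deletion in all tissues, made by crossing Acsl6 flox/flox mice with a CMV-Cre line. The labels call the other genotype control or WT, do not say whether those mice carried flox alleles or Cre, and name no agent for any group.

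Both cyclooxygenases oxidize arachidonic acid released from membrane phospholipids to the unstable prostaglandin H2. Terminal synthases then turn this intermediate into prostaglandin D2, prostaglandin E2 or thromboxane A2, and a dehydrogenase and a reductase inactivate the prostaglandins. In the brain, these lipids act on pain, fever, sleep and blood flow, and the enzymes are spread over neurons, microglia, the meninges and vessels. ACSL6 is an acyl-CoA synthetase that primes DHA and related fatty acids for entry into phospholipids, and the study measured the transcriptome to learn what its loss changes in young and in aged mice.

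Values are normalized counts, which are reads in exons per gene divided by 1 size factor per library. Fold changes are on the scale of log2(normalized count + 1), tests are limma's over 17042 genes with a mean of at least 10, and a gene was called changed at a Benjamini-Hochberg adjusted p under 0.05. Total normalized counts were 20057077 to 21097638 per library. Nothing in the sources used here says whether the 4 samples of a group came from separate litters or cages, so p values measure the spread between these samples. Acsl6 was 6753 ± 309 (SD, n = 4) in young control, 2293 ± 36.1 in young Acsl6-/-, 5970 ± 112 at 18 months in control and 2178 ± 75.7 in Acsl6-/- mice of that age, and the genotypes did not overlap at either age. Markers of the tissue were present in every library, with the granule cell gene Cbln3 at 21148 to 32075 and the Purkinje cell gene Pcp2 at 4435 to 5740. Ttr, the transthyretin gene of the choroid plexus, stood above 5000 in 5 libraries, which were replicates 1 and 4 of young control, 3 and 4 of aged control and 1 of aged Acsl6-/- mice, and ran from 87.9 to 435 elsewhere.

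Promoter sequences are shown for both cyclooxygenase genes and for the synthase genes Hpgds and Tbxas1, which were called higher with age in both genotypes. They are RefSeq windows of GRCm38.p6, from 250 bases before to 50 bases after the annotated start, written 5′ to 3′ on the gene's own strand. All 10 genes matched an entry. Capitals mark the motifs searched on both strands, which were picked after the sequences had been seen. The window of Ptgs2 (chr1:150099781-150100080, plus strand) holds a C/EBP palindrome (TTGCGCAA) that begins 69 bases before the start, and an E-box (CACGTG) that begins 16 bases after it and overlaps a core of a CRE (TGACG, on the minus strand). That of Ptgs1 (chr2:36230176-36230475, plus strand) holds the ETS core found in PU.1 sites (GAGGAAGT), 24 bases before the start.
Ptgs2: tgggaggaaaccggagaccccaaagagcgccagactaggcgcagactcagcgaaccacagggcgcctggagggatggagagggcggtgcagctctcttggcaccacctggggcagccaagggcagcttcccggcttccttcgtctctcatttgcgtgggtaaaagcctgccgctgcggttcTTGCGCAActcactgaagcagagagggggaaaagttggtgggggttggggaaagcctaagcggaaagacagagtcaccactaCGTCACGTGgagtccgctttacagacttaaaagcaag
Ptgs1: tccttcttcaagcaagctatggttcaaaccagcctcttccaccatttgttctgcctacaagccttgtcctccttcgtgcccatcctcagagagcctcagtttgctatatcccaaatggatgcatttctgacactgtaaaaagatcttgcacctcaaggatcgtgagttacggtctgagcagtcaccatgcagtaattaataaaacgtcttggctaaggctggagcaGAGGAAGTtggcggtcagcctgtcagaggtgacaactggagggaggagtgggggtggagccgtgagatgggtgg
The window of Hpgds (chr6:65144681-65144980, minus strand) holds the same GAGGAAGT letters, 49 bases before the start. That of Tbxas1 (chr6:38918736-38919035, plus strand) holds a TATA box (TATAAA) on both strands, 11 bases before the start as read on the plus strand, and its RefSeq start lies inside the longer gene of the GENCODE annotation.
Hpgds: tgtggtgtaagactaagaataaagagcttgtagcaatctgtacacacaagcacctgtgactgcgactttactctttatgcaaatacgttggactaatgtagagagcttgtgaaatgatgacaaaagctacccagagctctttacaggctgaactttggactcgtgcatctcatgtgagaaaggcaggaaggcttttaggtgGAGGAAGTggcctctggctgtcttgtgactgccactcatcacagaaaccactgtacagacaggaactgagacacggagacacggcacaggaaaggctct
Tbxas1: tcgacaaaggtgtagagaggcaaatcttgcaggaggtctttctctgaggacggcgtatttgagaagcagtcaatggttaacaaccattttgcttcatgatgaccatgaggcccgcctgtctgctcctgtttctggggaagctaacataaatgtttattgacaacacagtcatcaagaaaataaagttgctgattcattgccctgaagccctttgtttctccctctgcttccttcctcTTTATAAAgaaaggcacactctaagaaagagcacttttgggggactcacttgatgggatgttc
Of 32851 RefSeq promoters of this length, 0.183% held TTGCGCAA, 7.15% CACGTG, 20.8% TGACG, 3.20% GAGGAAGT and 13.6% TATAAA. Among the other members, Hpgd also held TATAAA, Ptges2 CACGTG and Ptges3 TGACG. A match of letters is a description of the window and not a bound site.

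In the GENCODE annotation of GRCm38 all 10 are protein-coding genes. Those of the cyclooxygenases are Ptgs1 (ENSMUSG00000047250, chr2:36230426-36252272) and Ptgs2 (ENSMUSG00000032487, chr1:150100031-150108227), and those of the D synthases Ptgds (ENSMUSG00000015090, chr2:25466709-25470046) and Hpgds (ENSMUSG00000029919, chr6:65117293-65144908). The E synthase genes are Ptges (ENSMUSG00000050737, chr2:30889471-30929863), Ptges2 (ENSMUSG00000026820, chr2:32395896-32405772) and Ptges3 (ENSMUSG00000071072, chr10:128058954-128077272), and the thromboxane synthase gene is Tbxas1 (ENSMUSG00000029925, chr6:38875404-39084585). Inactivation is represented by Hpgd (ENSMUSG00000031613, chr8:56294585-56321043) and Ptgr1 (ENSMUSG00000028378, chr4:58965439-58987119).

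The 10 genes differed widely in level. Per kilobase of exon, Ptgds stood first with a mean normalized count of 7380 over the 16 libraries, followed by Ptges3 at 809.5, and neither range overlapped that of the next gene. Ptges2 had a mean of 80.3 per kilobase and Hpgd of 55.0, with overlapping ranges, though Ptges2 was above Hpgd in all 16 libraries. Ptgs1 followed at 27.0 per kilobase. Ptges at 15.5, Ptgr1 at 13.1 and Hpgds at 12.5 per kilobase could not be ordered beyond their spread, with Ptgr1 above Hpgds in 8 of 16 libraries. Tbxas1 at 4.30 and Ptgs2 at 3.70 per kilobase were lowest, and Tbxas1 exceeded Ptgs2 in 13 of 16 libraries.

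Between 2 and 18 months of age, 7 of 10 genes rose in control mice and 5 of 10 rose in Acsl6-/- mice, and none was called lower. Of all genes tested, 15.3% were called higher and 16% lower with age in control mice, and 11.6% higher and 11.6% lower in Acsl6-/- mice. The members were chosen with earlier results of these data known, so the counts beside these shares are a description and not a test. Hpgds, Tbxas1, Ptgs2, Hpgd and Ptges3 rose in both genotypes, whereas Ptgs1 and Ptges were called in control mice and not in Acsl6-/- mice. The median change of the 10 genes was 0.50 on the log2 scale in control mice (0.01 over all genes) and 0.15 in Acsl6-/- mice (0.00 over all genes). The 2 age comparisons share no library. The members are described next by their place in the pathway, and the plot of normalized counts by library shows every value.

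**Figure D1:**
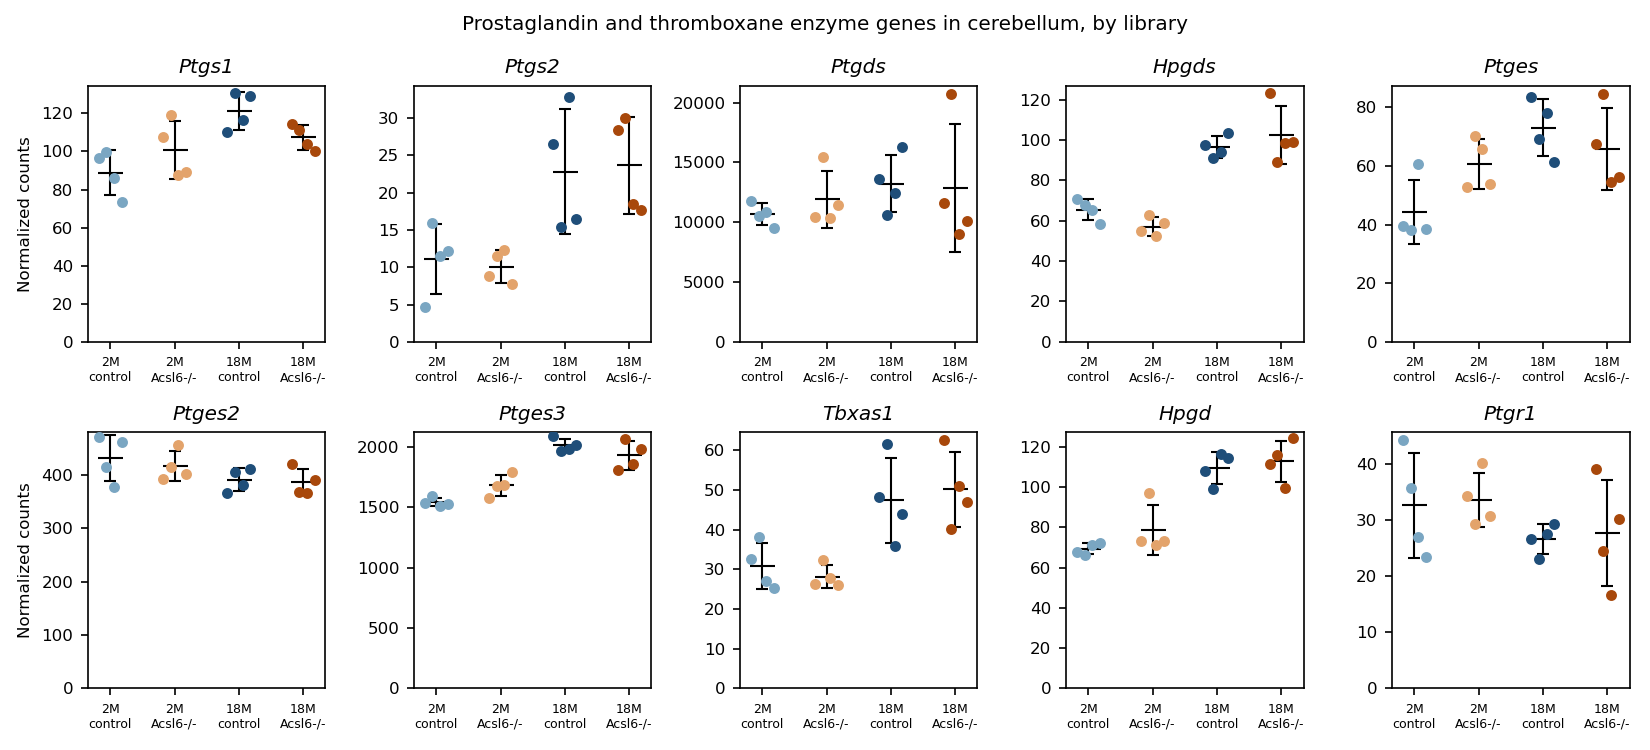
Normalized counts (vertical axes, from 0) of the 10 prostaglandin and thromboxane enzyme genes in the 4 groups, young (2M) and aged (18M) control and Acsl6-/- mice. Each point is 1 library, horizontal bars are group means and error bars the SD (n = 4); Hpgds and Hpgd show aged libraries above all young ones in both genotypes, whereas Ptgds, Ptges2 and Ptgr1 overlap between the ages.

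Ptgs2, the inducible cyclooxygenase COX-2 of stimulated neurons and inflamed tissue, was the lowest of the members and had the largest fold changes with age. Its normalized counts were 4.66, 15.98, 11.6 and 12.2 in young control and 26.5, 15.4, 32.9 and 16.5 in aged control mice. In young Acsl6-/- mice they were 8.80, 11.5, 12.35 and 7.70, and in aged Acsl6-/- mice 28.4, 30.1, 18.5 and 17.7. The aged libraries thus split into a higher and a lower pair in both genotypes, and the ages overlapped in control mice but not in Acsl6-/- mice. Ptgs2 was higher with age by 1.02 ± 0.33 (log2, SE; adjusted p = 0.0265, limma) in control and by 1.14 ± 0.33 (adjusted p = 0.0184, limma) in Acsl6-/- mice. These calls were lost when certain single libraries were left out. In control mice the adjusted p of limma was 0.102 without young control 1, 0.0719 without aged control 1 and 0.0912 without aged control 3, and in Acsl6-/- mice it was 0.0536 without young Acsl6-/- 4, 0.0507 without aged Acsl6-/- 1 and 0.0605 without aged Acsl6-/- 2.

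Genes that neurons switch on with activity were set beside Ptgs2, since it is counted among them. Of 10 such genes measured, Fosb and Npas4 rose and Egr4, Arc and Egr1 fell with age in control mice. Of all genes tested, 15.3% were called higher and 16% lower in that comparison. In Acsl6-/- mice Egr4 and Egr1 fell, where 11.6% of all genes were called higher and 11.6% lower. The summed level of the 10 genes ran from 3025 to 6405 in young control and 5031 to 6629 in young Acsl6-/- mice. It was 4136 to 5949 in aged control and 3412 to 4668 in aged Acsl6-/- mice. Between Ptgs2 and this sum, Pearson's r was 0.64 (exact permutation p = 0.0836; Spearman's rho 0.21, p = 0.619) over the 8 young and 0.24 (p = 0.564; rho 0.14, p = 0.752) over the 8 aged libraries. After leaving out the 2 libraries farthest from the median these r were 0.26 and -0.53. The handling of the mice at collection is not given in the sources used here and its part in Ptgs2 was not tested.

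Ptgs1, the constitutive cyclooxygenase COX-1, which in mouse brain is found mainly in microglia, rose with age in control mice. The values were 96.6, 99.6, 85.8 and 73.3 in young control and 110, 131, 116 and 129 in aged control mice, without overlap. Among Acsl6-/- mice they were 107.5, 119, 87.5 and 89.5 at 2 months and 114.5, 111, 104 and 100.2 at 18 months, and the ages overlapped. The change was 0.45 ± 0.12 (log2, SE; adjusted p = 0.0090, limma) in control and 0.10 ± 0.12 (adjusted p = 0.604, limma) in Acsl6-/- mice, and the difference between these changes was -0.35 (95% interval -0.72 to 0.01, adjusted p = 0.514 for the interaction, limma). On the 14 libraries for which whole reads could be recovered, the change in control mice was 0.44 with limma (adjusted p = 0.0636), 0.44 with DESeq2 (adjusted p = 0.0770) and 0.45 with edgeR (adjusted p = 0.0597).

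Hpgds and Ptgds are unrelated proteins that make the same product, prostaglandin D2. Hpgds was called higher with age in both genotypes and Ptgds in neither, and the difference between the 2 genes was not tested. Hpgds, the glutathione-dependent synthase of blood cells and microglia, had 71, 67.6, 65.6 and 58.2 normalized counts in young control and 97.6, 91.2, 94.1 and 103 in aged control mice. In Acsl6-/- mice it had 54.7, 62.75, 52.5 and 58.7 at 2 months and 123, 89.15, 98.5 and 99.1 at 18 months. Every aged library exceeded every young one in both genotypes. The rise was 1.47-fold in control (log2 0.55 ± 0.12, SE; adjusted p = 0.0017, limma) and 1.77-fold in Acsl6-/- mice (log2 0.82 ± 0.12, SE; adjusted p = 7.7e-05, limma), with 4 of 4 aged libraries above all young ones each time.

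Ptgds, the lipocalin-type synthase that is also the secreted beta-trace protein of cerebrospinal fluid, is known from the leptomeninges, choroid plexus and oligodendrocytes. It had 11782, 10543, 10849.5 and 9533 normalized counts in young control and 13629, 10580.5, 12448 and 16276 in aged control mice. The Acsl6-/- mice had 10433, 15417, 10347 and 11403 at 2 months and 11637, 20728, 9049 and 10072 at 18 months. Single libraries stood high, namely young Acsl6-/- 2, aged control 4 and aged Acsl6-/- 2, and the ages overlapped in both genotypes. The change with age was 0.30 (95% interval -0.10 to 0.70, adjusted p = 0.253, limma) in control and 0.05 (-0.35 to 0.45, adjusted p = 0.873, limma) in Acsl6-/- mice, both on the log2 scale.

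The levels of Ptgds were set beside markers of the tissues that border the cerebellum. In the 3 libraries in which Ptgds stood high, Ttr was 279 (young Acsl6-/- 2), 8768 (aged control 4) and 163 (aged Acsl6-/- 2), and in aged control 3, which had the highest Ttr at 26551, Ptgds was 12448. Over the 11 libraries with low Ttr, Ptgds and Ttr had an r of -0.26 (permutation p = 0.457) and a rho of -0.35 (p = 0.286), with an r of -0.81 once the 2 farthest libraries were left out. The summed level of 19 markers of the meninges was 6673 in young Acsl6-/- 2, 8186 in aged control 4 and 8072 in aged Acsl6-/- 2, the highest of its group in each case. Over the 8 aged libraries Ptgds and this sum had an r of 0.82 (exact permutation p = 0.0113, 0.192 adjusted over the 17 relations computed) and a rho of 0.90 (p = 0.0046, 0.0776 adjusted), with an r of 0.67 without the 2 farthest libraries. Over the 8 young libraries the r was 0.88 (p = 0.0353, 0.2003 adjusted) and the rho 0.43 (p = 0.299), and r turned to -0.55 without the 2 farthest libraries, so the young relation rests on these. With 12 oligodendrocyte markers, Ptgds had an r of 0.72 (exact permutation p = 0.0229, 0.195 adjusted; rho 0.62, p = 0.115) in the young and 0.05 (p = 0.907; rho 0.19, p = 0.665) in the aged libraries. None of the 17 relations passed adjustment. Each pooled the 2 genotypes, whose differences can enter r.

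**Figure D2:**
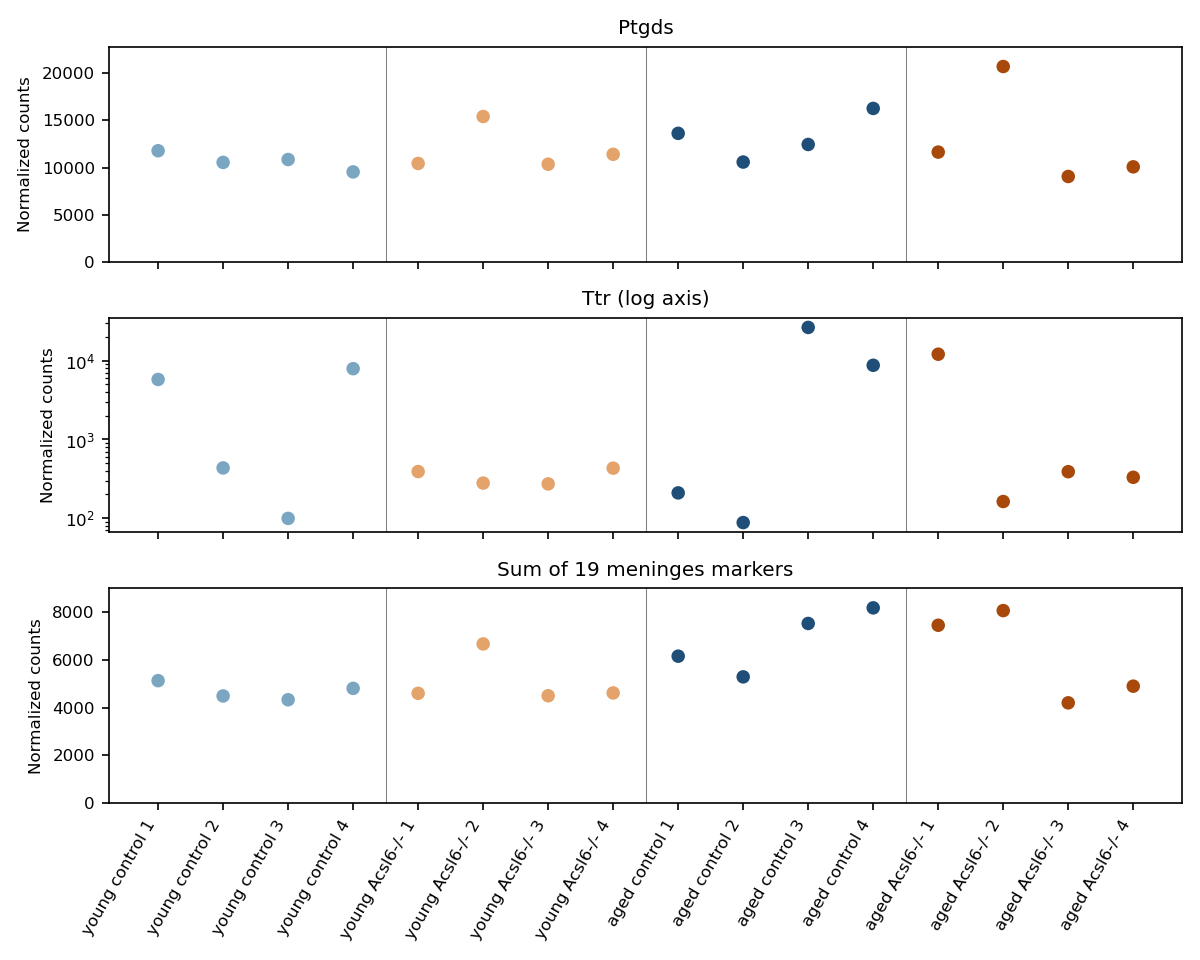
Normalized counts by library (horizontal axis, 4 groups divided by lines) of Ptgds (top, linear axis), Ttr (middle, logarithmic axis) and the sum of 19 meninges markers (bottom, linear axis). Ptgds was high in young Acsl6-/- 2 and aged Acsl6-/- 2, where the meninges sum was 6673 and 8072 and Ttr was 279 and 163, and of the 3 libraries with the most Ptgds only aged control 4 had Ttr above 5000.

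Of the 3 prostaglandin E synthases, Ptges was called higher with age in control mice alone, Ptges3 in both genotypes and Ptges2 in neither. Differences between the 3 genes were not tested. Ptges, the inducible membrane enzyme mPGES-1 that works with COX-2 in inflammation, had 39.6, 38.1, 60.75 and 38.5 normalized counts in young control and 83.4, 69.2, 78.1 and 61.3 in aged control mice. Young control 3 stood above the other young controls, and the lowest aged control lay just above it. In Acsl6-/- mice Ptges had 52.8, 70.1, 65.9 and 53.9 at 2 months and 67.5, 84.7, 54.5 and 56.3 at 18 months, with wide overlap. The rise in control mice was 1.66-fold (log2 0.73 ± 0.18, SE; adjusted p = 0.0047, limma), and the change in Acsl6-/- mice was 0.10 ± 0.18 (adjusted p = 0.723, limma).

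Ptges3 encodes p23, a co-chaperone of HSP90 that was also described as the cytosolic prostaglandin E synthase, and it had the smallest SD relative to the mean of the 10 genes in each group. It had 1540.0, 1592, 1512 and 1532 normalized counts in young control and 2093, 1971, 1987 and 2020.2 in aged control mice. In Acsl6-/- mice it had 1582, 1677, 1687 and 1794 at 2 months and 1814, 2072, 1857 and 1984 at 18 months. The ages did not overlap in either genotype, though aged Acsl6-/- 1 at 1814 lay close to young Acsl6-/- 4 at 1794. Ptges3 rose by 30.7% in control (log2 0.39 ± 0.05, SE; adjusted p = 8.1e-06, limma) and by 14.6% in Acsl6-/- mice (log2 0.20 ± 0.05, SE; adjusted p = 0.0043, limma). The interaction was -0.19 (95% interval -0.33 to -0.05, adjusted p = 0.336, limma), so the difference between the genotypes in this rise was not called. A pseudogene named after Ptges3 is annotated in the genome. The authors counted unique hits, so reads that fit both equally well would not count for either.

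Ptges2, the membrane enzyme mPGES-2 that is made at a steady level in most tissues, stayed between 366 and 470.3 normalized counts in all 16 libraries. Its change with age was -0.14 (95% interval -0.29 to 0.02, adjusted p = 0.176, limma) in control and -0.11 (-0.26 to 0.05, adjusted p = 0.336, limma) in Acsl6-/- mice.

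Tbxas1, the cytochrome P450 of platelets and macrophages that makes thromboxane A2, rose with age in both genotypes. It had 32.6, 38.1, 27 and 25.4 normalized counts in young control and 48.3, 61.5, 35.97 and 43.9 in aged control mice. Acsl6-/- libraries had 26.4, 32.4, 27.8 and 25.97 at 2 months and 62.6, 40.1, 51.0 and 46.95 at 18 months. The ages overlapped in control mice, where aged control 3 lay under young control 2, and did not overlap in Acsl6-/- mice. The rise was 1.52-fold in control (log2 0.60 ± 0.19, SE; adjusted p = 0.0222, limma) and 1.74-fold in Acsl6-/- mice (log2 0.80 ± 0.19, SE; adjusted p = 0.0050, limma). The call in control mice was lost without young control 3 (adjusted p = 0.0603, limma), young control 4 (0.0656), aged control 1 (0.0512) or aged control 2 (0.0801). Exons of Tbxas1 share 144 bases with Gm42962 and those of Ptgs1 share 148 bases with Gm43621, both on the opposite strand, and the strand used in counting is not given in the sources used here.

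Of the enzymes that end the signal, Hpgd rose and Ptgr1 did not. Hpgd, the NAD-dependent 15-hydroxyprostaglandin dehydrogenase of the first step of inactivation, had 67.5, 66.4, 71.4 and 72.3 normalized counts in young control and 108, 98.9, 116 and 114 in aged control mice. Among Acsl6-/- mice the values were 73.3, 97.3, 71.0 and 73.1 at 2 months and 112, 116, 99.4 and 124 at 18 months. All aged libraries exceeded all young ones of their genotype, with young Acsl6-/- 2 alone near the aged range. The rise was 1.57-fold in control (log2 0.65 ± 0.12, SE; adjusted p = 0.0004, limma) and 1.44-fold in Acsl6-/- mice (log2 0.52 ± 0.12, SE; adjusted p = 0.0033, limma). Ptgr1, the reductase that acts after Hpgd and also inactivates leukotriene B4, ranged from 16.7 to 44.2 normalized counts over all libraries. Its change was -0.25 (95% interval -0.75 to 0.25, adjusted p = 0.458, limma) in control and -0.32 (-0.82 to 0.17, adjusted p = 0.354, limma) in Acsl6-/- mice.

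**Figure D3:**
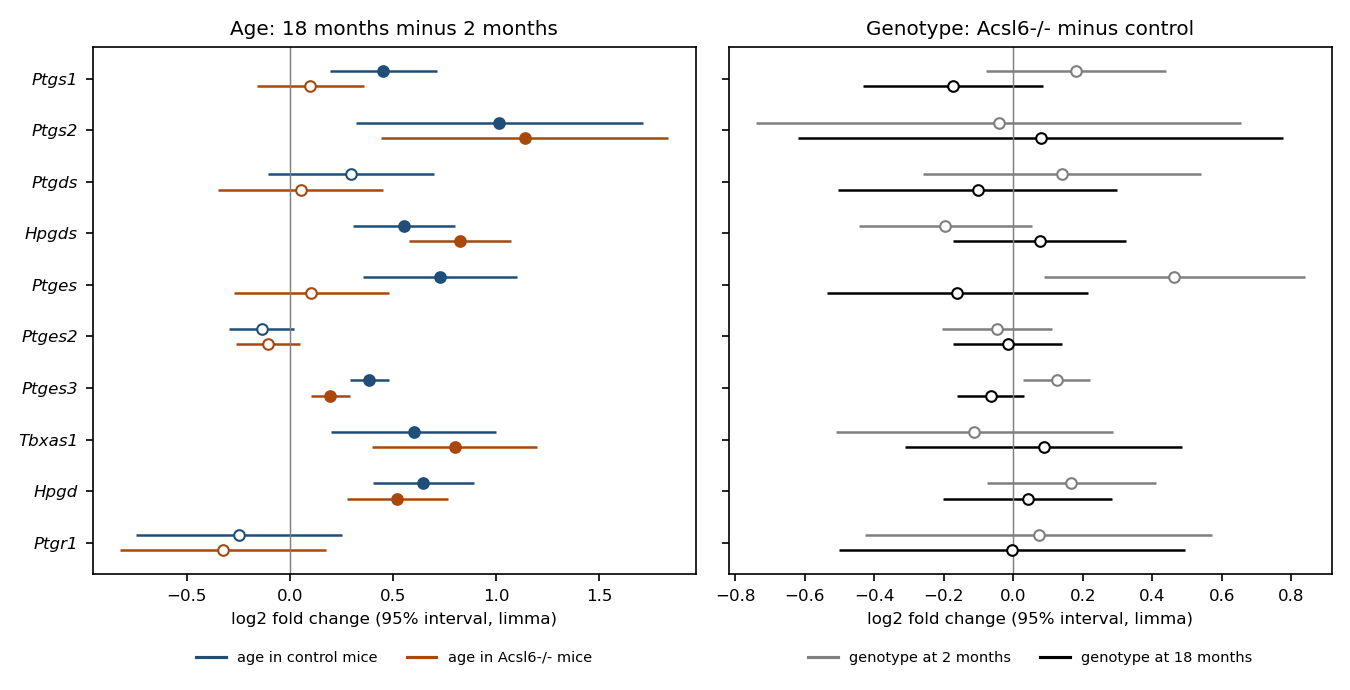
Fold changes (horizontal axes, log2 scale) of the 10 genes with age (left, 18 minus 2 months, in control and in Acsl6-/- mice) and with genotype (right, Acsl6-/- minus control, at 2 and at 18 months), as points with 95% intervals from limma. Filled points were called at an adjusted p under 0.05, namely 7 for age in control mice, 5 for age in Acsl6-/- mice and 0 for genotype at either age.

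Between all 4 aged and all 4 young libraries there was no overlap, with the aged higher, for 5 members in control mice (Ptgs1, Hpgds, Ptges, Ptges3 and Hpgd) and for 5 in Acsl6-/- mice (Ptgs2, Hpgds, Ptges3, Tbxas1 and Hpgd). Over the whole set of genes tested, 14.8% separated this way in control and 11.5% in Acsl6-/- mice. On the 14 libraries with recovered reads, DESeq2, edgeR and limma each called 5 members in control mice (Ptges, Tbxas1, Hpgds, Ptges3 and Hpgd) and the same 5 as before in Acsl6-/- mice. Over all genes, these tools called 1577, 1681 and 1547 of 17042 higher in control mice, against 2610 with limma on 16 libraries. In Acsl6-/- mice the counts were 1881, 1981 and 1910, against 1981. Without the 5 libraries high in Ttr, which leaves 2 libraries in each control group, limma called Ptges3 and Hpgd in control mice and all 5 in Acsl6-/- mice. Over all genes, 1822 of 17042 were called higher in that fit in Acsl6-/- mice and 1350 in control mice. Of the 5 members that lost their call there, 4 had changes near those in all libraries, on the log2 scale 0.50 for Hpgds (adjusted p = 0.0577, limma), 0.75 for Tbxas1 (0.0583), 0.65 for Ptges (0.119) and 0.37 for Ptgs1 (0.1803). That of Ptgs2 was 0.54 in place of 1.02 (adjusted p = 0.395, limma).

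Markers of other cell types were compared between the ages as well. Of all genes tested, 15.3% were called higher with age in control and 11.6% in Acsl6-/- mice. All 20 markers of microglia, the resident macrophages of the brain, were higher with age in both genotypes, with a median change of 1.11 in control and 1.15 in Acsl6-/- mice on the log2 scale. Their summed level was 2638 to 3249 in young control, 3158 to 3851 in young Acsl6-/-, 5876 to 6643 in aged control and 6917 to 9146 in the aged Acsl6-/- group. Hpgds, Tbxas1 and Ptgs1, which are known from these cells, had changes below the median of the markers in both genotypes. The 20 markers ran from 0.76 to 1.71 in control and from 0.64 to 1.86 in Acsl6-/- mice. Hpgds (0.55), Tbxas1 (0.60) and Ptgs1 (0.45) were below the control range. In Acsl6-/- mice Hpgds (0.82) and Tbxas1 (0.80) were inside the range and Ptgs1 (0.10) below it. Within an age no relation of these genes to the sum passed adjustment. The r for Hpgds was -0.30 (exact permutation p = 0.483; rho -0.24, p = 0.582) in the 8 young and 0.71 (p = 0.0520; rho 0.43, p = 0.299) in the 8 aged libraries, the latter falling to 0.02 without the 2 farthest. For Tbxas1 the r was -0.15 (p = 0.718; rho 0.19, p = 0.665) in the young and 0.40 (p = 0.317; rho 0.33, p = 0.428) in the aged libraries, and for Ptgs1 0.44 (p = 0.263; rho 0.43, p = 0.299) and -0.51 (p = 0.187; rho -0.62, p = 0.115), all by exact permutation. In bulk tissue, more cells of a type and more RNA per cell cannot be told apart, and the part of microglia in these rises was not tested.

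Of 19 meninges markers, 11 rose in control (median change 0.68) and 2 in Acsl6-/- mice (median 0.33), and their summed level was 4332 to 5132 in young control, 4499 to 6673 in young Acsl6-/-, 5291 to 8186 in aged control and 4202 to 8072 in the aged Acsl6-/- group. Of 5 markers of border macrophages measured, 4 and 1 rose, and their sum was 119 to 164 in young control, 126 to 177 in young Acsl6-/-, 223 to 291 in aged control and 159 to 279.7 in the aged Acsl6-/- group. For the interaction 0 of 19 meninges markers and 0 of 5 border macrophage markers were called, where 0.0176% of all genes were. Interaction estimates were above 0 for 2 of 19 (median -0.31) and for 0 of 5 (median -0.34). Neither list is thus shown to differ between the genotypes, nor shown to be alike. The part of these tissues in the rises of Ptgs1 and Ptges was not tested. None of 14 choroid plexus markers was called in either age comparison, though all 14 had changes above 0 in both genotypes. Their median change was 0.52 in control and 0.97 in Acsl6-/- mice. Their summed level differed widely between libraries of a group, from 728 to 10358 in young control and from 773 to 32185 in aged control mice. In young Acsl6-/- mice it was 1001 to 1240. Aged Acsl6-/- 1 held 15540, whereas aged Acsl6-/- 2, 3 and 4 held 1070, 1058 and 1195, within the young range. The median of 0.97 thus includes 1 library far above the rest of its group. Of 8 markers of Bergmann glia and astrocytes, 4 rose and 1 fell in control and 3 rose and 1 fell in Acsl6-/- mice. Granule cell markers fell, 7 of 8 in control and 6 of 8 in Acsl6-/- mice, and of 12 oligodendrocyte markers 1 rose and 3 fell in control and 9 fell in Acsl6-/- mice. Endothelial and mural cell markers rose for 3 and fell for 1 of 13 in control and rose for 2 and fell for 1 in Acsl6-/- mice. Of 6 Purkinje cell markers 0 rose in control and 1 in Acsl6-/- mice. Over all genes tested, 15.3% were called higher and 16% lower in control, and 11.6% each way in Acsl6-/- mice. Whether the counts of these lists differ from those shares was not tested.

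**Figure D4:**
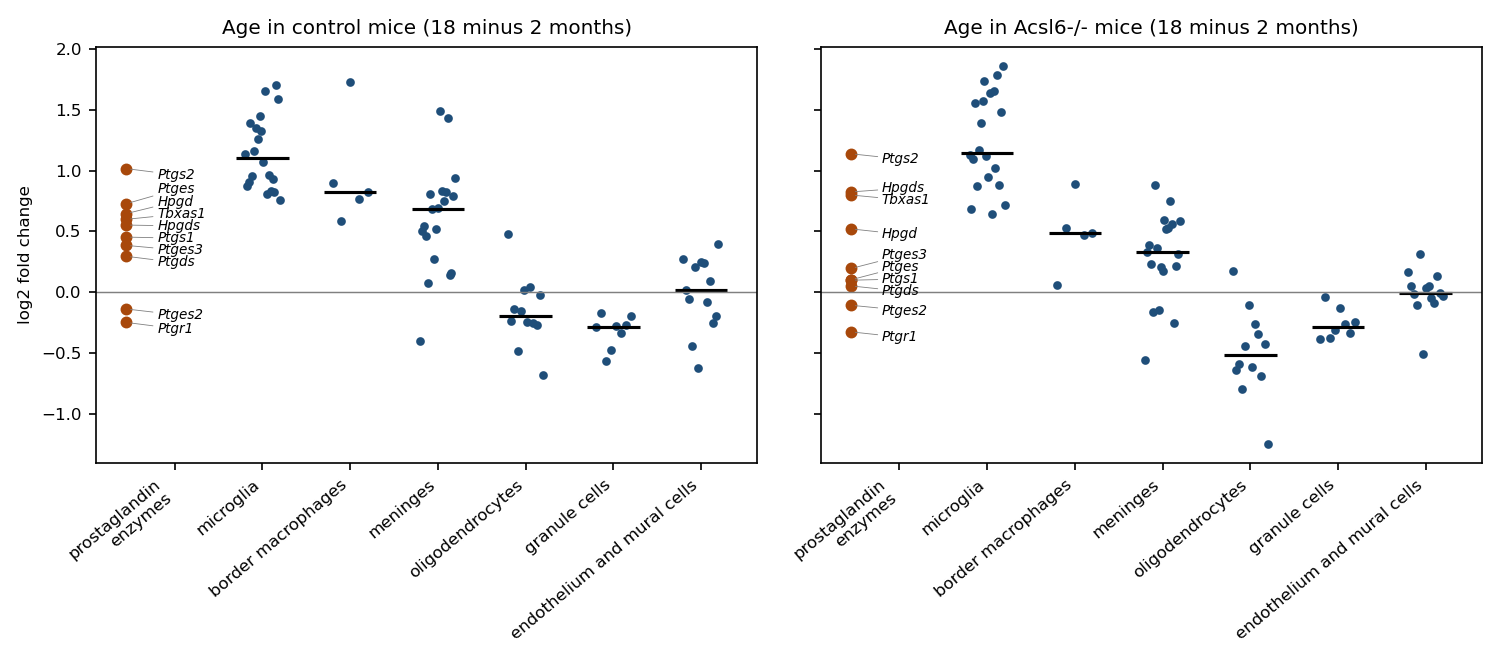
Change with age (vertical axis, log2 fold change, 18 minus 2 months) in control (left) and Acsl6-/- mice (right) of the 10 enzyme genes (orange, labelled) and of marker genes of 6 tissues or cell types (blue), with horizontal bars at list medians. The microglia median lies at 1.11 and 1.15, and Ptgs2, at 1.02 and 1.14, is the member nearest to it.

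None of the 10 genes was called higher or lower in Acsl6-/- than in control mice at either age. At 2 months 0 of 10 members were called, where 0.211% of all genes were, and at 18 months 0 of 10, where 0.241% were. DESeq2 and edgeR on 14 libraries also called 0 at both ages. With limma, an unadjusted p under 0.05 was reached by 2 of 10 members at 2 months, where 2068 of 17042 genes had one, and by 0 at 18 months, where 1560 had one. Without the libraries high in Ttr, which leaves 2 young control libraries, the count was 0 at 2 months as well, where 1822 of 17042 genes had one. The 2 members were Ptges, higher by 0.46 (95% interval 0.09 to 0.84, adjusted p = 0.3002, limma), and Ptges3, higher by 0.12 (0.03 to 0.22, adjusted p = 0.277, limma), and for both the 2 genotypes overlapped.

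The 95% intervals bound what these libraries could show. They reached from -0.74 to 0.84 on the log2 scale over the 10 genes at 2 months and from -0.62 to 0.78 at 18 months, widest for Ptgs2. For Ptges3 and Ptges2, the members with the narrowest intervals, they were 0.03 to 0.22 and -0.20 to 0.11 at 2 months and -0.16 to 0.03 and -0.17 to 0.14 at 18 months. For Ptgs1 the difference was 0.18 (-0.08 to 0.44, adjusted p = 0.601, limma) at 2 months and -0.17 (-0.43 to 0.08, adjusted p = 0.730, limma) at 18 months. No member had all 4 Acsl6-/- libraries on one side of the 4 controls, which 6.65% of the genes tested did at 2 months and 5.17% at 18 months.

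Whether the change with age differed between the genotypes was tested as an interaction, and 0 of 10 members were called, where 0.0176% of all genes were. The interaction had an unadjusted p under 0.05 for 2 of 10 members, where 1707 of 17042 genes had one. The count was 0 without the libraries high in Ttr, where 1790 of 17042 genes had one and 2 libraries were left in each control group. For Ptges it was -0.62 (95% interval -1.16 to -0.09, adjusted p = 0.420, limma), and for Ptges3 it is given above. The calls of Ptgs1 and Ptges in control mice alone are therefore not shown to differ between the genotypes. The age and genotype comparisons share their groups and are not independent of each other.

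Of 20 further genes of the pathway that were listed by hand, 15 were measured. With age in control mice 1 rose and 1 fell, where 15.3% of all genes were called higher and 16% lower. In Acsl6-/- mice 1 rose and 0 fell, where 11.6% of all genes were called higher and 11.6% lower. Akr1b3, an aldose reductase that can form prostaglandin F2α, went from 365 ± 33.6 (SD, n = 4) to 426.5 ± 26.2 in control mice (log2 0.23, adjusted p = 0.0174, limma). Fam213b, which encodes a prostamide and prostaglandin F synthase, went from 1142 ± 101 to 946 ± 46.1 in control mice (log2 -0.27, adjusted p = 0.0245, limma). Ptgfr, the receptor of prostaglandin F2α, went from 15.1 ± 3.42 to 25.99 ± 8.31 in Acsl6-/- mice (log2 0.72, adjusted p = 0.0364, limma) and from 16.1 ± 3.17 to 25.2 ± 2.72 in control mice (log2 0.63, adjusted p = 0.0540, limma). None of the 15 was called for genotype at 2 or 18 months or for the interaction, where 0.211%, 0.241% and 0.0176% of all genes were.

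The genes whose levels were most like each member that rose were sought among 12338 named genes with a mean of at least 50, by Pearson's r of log2 values over the 16 libraries. All points share the 4 groups, so these r describe the whole pattern, age included. For Hpgds they were Ctsh (0.97) and Hexa (0.95), which encode lysosomal enzymes, and Arhgap45 (0.94). For Tbxas1 they were Shisa7 (0.91), Asap1 (0.91) and Irf8 (0.90), the last a transcription factor of myeloid cells. For Hpgd they were Serpinb6a (0.96), the astrocyte water channel gene Aqp4 (0.95) and Lgals1 (0.95). For Ptgs1 they were Smoc1 (0.91), Pam (0.89) and March1 (0.89), for Ptgs2 Palmd (0.90), Trim21 (0.89) and Tgfb1 (0.87), and for Ptges Med19 (0.84), Mrc2 (0.84) and Gskip (0.84). With the mean of each group removed, r ran from 0.52 (Hpgds and Arhgap45) to 0.91 (Ptgs2 and Palmd).

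For Ptges3 the 3 genes were Hlf (0.97), Per2 (0.96) and Klf4 (0.96). With the mean of each group removed, r was 0.75 for Hlf, 0.64 for Per2 and 0.66 for Klf4. Hlf and Per2 belong to genes whose RNA follows the daily clock in many tissues. Per2 was 497 to 613.5 normalized counts in young control, 554 to 1000.3 in young Acsl6-/-, 1813 to 2452 in aged control and 1377 to 2401 in the aged Acsl6-/- group. It was higher with age by 1.89 in control (adjusted p = 3.3e-07, limma) and by 1.252 in Acsl6-/- mice (adjusted p = 3.4e-05, limma) on the log2 scale. The hour of collection is not given in the sources used here. An effect of age and one of the hour thus cannot be told apart, for Ptges3 or for any other member.

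**Figure D5:**
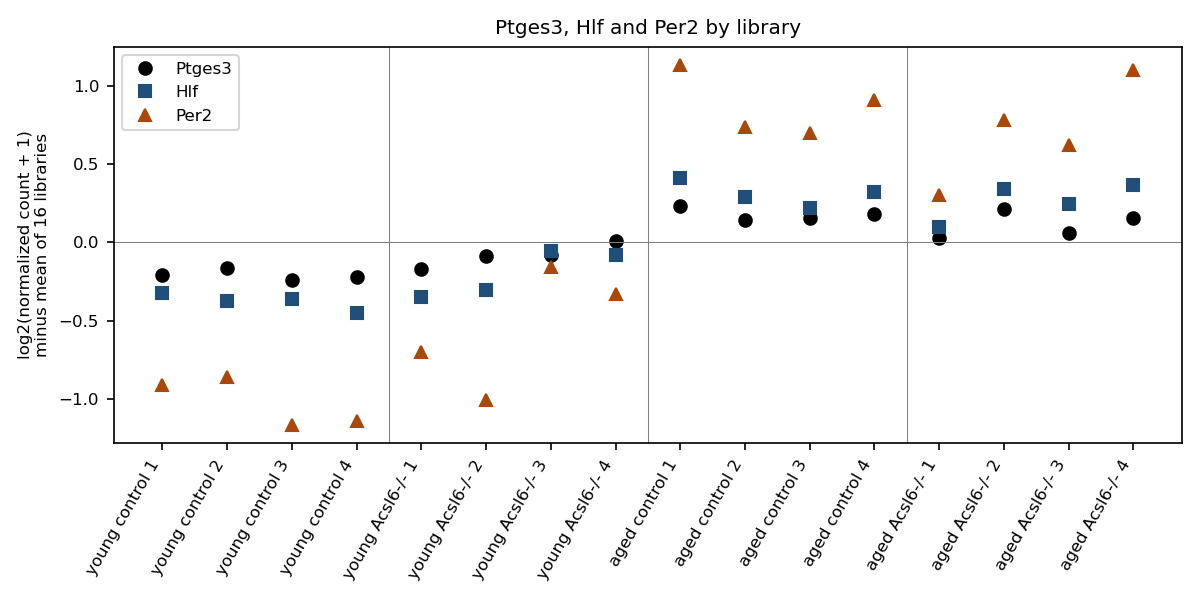
Level of Ptges3, Hlf and Per2 in each library (horizontal axis, 4 groups divided by lines), as log2(normalized count + 1) minus the gene's mean over the 16 libraries (vertical axis). All 3 genes are higher in the aged libraries of each genotype than in the young ones, and Per2 spans the widest range, with 497 to 2452 normalized counts.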

How the data were processed

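Paired reads were trimmed by the authors (Trimmomatic 0.36), mapped to GRCm38 (STAR 2.5.2b) and counted in exons, unique reads only, by featureCounts. The deposited table holds normalized counts, a signal that the authors made by dividing each library's counts by 1 size factor. It covers 17074 genes, and the lowest mean over the libraries was 9.31. In 14 libraries all values were whole multiples of 1 step (tolerance 0.001), which gave 16953548 to 23119179 reads per library. For aged control 3 and 4 the lowest value was not 1 step, so they entered no count test.

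For the tests, 1 was added, log2 was taken, and limma 3.58.1 (R 4.3.3; empirical Bayes with trend) was fitted to 17042 genes (mean 10 or more) in 1 model of the 4 groups, in place of the study's DESeq2 since the values are not whole counts. P values are two-sided, adjusted by Benjamini-Hochberg over all genes. Alternatives were a pseudocount of 5, no filter, a mean of at least 50, quantile and TMM scaling, 2 groups only, array weights, a replicate block, each library left out, and DESeq2 1.42.0 and edgeR 4.0.16 on recovered reads. Fits on the same 14 libraries with limma and without the 5 libraries with Ttr above 5000 were also run.

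The members and lists were chosen with earlier results of these data known. Genes named are the 10 members, other pathway genes that were called, the 3 genes most like each called member, Acsl6, Ttr and listed markers; Cbln3, Pcp2 and the markers named by their call were chosen after their values were seen. Pathway genes and markers came from lists written by hand. Correlations used permutation tests (exact for 8 libraries, 100000 resamples for 11). Libraries of both genotypes were pooled and permuted without regard to genotype, so a difference between genotypes can enter r and its p. The smallest chi-square per gene between recovered counts of a group's libraries was 2.49, which is above sampling noise. Gene places came from GENCODE on GRCm38 and promoters from RefSeq (GRCm38.p6).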

Additional observations from a re-analysis of the deposited data

Results flagged for a closer look

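In 40 groups of 4 libraries (10 genes in 4 groups), 2 had a single library far from the other 3, where chance flags about 1 in 20 groups. Ptges in young control 3 stood at 60.75 normalized counts against 38.1 to 39.6 in the other young controls, a gap of 0.935 of the group's range. Hpgd in young Acsl6-/- 2 stood at 97.3 against 71.0 to 73.3, a gap of 0.912 of the range, and this library also had the highest Ptgds (15417) and meninges sum (6673) of its group.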

How the results depend on the processing

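Over 28 alternatives, the 12 called changes of members kept their sign and 6 kept their call in every alternative that tested them, and the 38 uncalled ones were never called. The count of members higher with age in control mice was 7 and became 2 without the libraries high in Ttr, a fit with 2 libraries in each control group in which 4 of the 5 lost members kept changes of 0.37 to 0.75 and Ptgs2 went from 1.02 to 0.54 (the cause was not tested), and that in Acsl6-/- mice was 5 and became 3 with a mean of at least 50, where Ptgs2 and Tbxas1 are not tested. Over all genes, the count called higher with age in control mice went from 2610 to 1350 without the libraries high in Ttr. With a mean of at least 50, 1752 of 13415 genes tested were called higher with age in Acsl6-/- mice. Leaving out 1 library gave 5 to 7 members in control and 4 to 5 in Acsl6-/- mice for age. It gave 0 members for genotype at either age and for the interaction. Over all 17042 genes, these fits called 2142 to 2660 higher with age in control and 1583 to 2044 in Acsl6-/- mice. For genotype they called 16 to 113 genes at 2 months and 16 to 53 at 18 months, and for the interaction 0 to 11. In control mice the call of Ptgs2 was also lost with quantile normalization (limma adjusted p = 0.0507), in a fit of 2 groups (0.0543), and on 14 libraries with limma (0.124), DESeq2 (0.165) and edgeR (0.101), and that of Tbxas1 with quantile normalization (0.0869). Same-numbered libraries of different groups had correlations of -0.20 to 0.21 in their deviations. The labels do not say whether the numbers pair the samples, and these correlations cannot settle it. With a replicate block 7 members were called for age in control mice, 5 in Acsl6-/- mice and 0 in the other comparisons. Ptgs2, at 4.66 to 32.9 normalized counts, is the member whose precision is most limited by depth.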
